A study of Mus musculus with 12 samples.

Results

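The genes of the interleukin-1 (IL-1) family and the inflammasome were taken by symbol from the expression table: the ligands *Il1a*, *Il1b* and *Il18*, the receptor antagonist *Il1rn*, the receptor chains *Il1r1* and *Il1rap*, the inflammasome genes *Nlrp3* and *Casp1*, and the adaptor *Myd88*. All 9 were present among 18180 genes, so all had passed the authors' filter on low expression. IL-1α and IL-1β bind the receptor IL1R1, which recruits the accessory chain IL1RAP and then MyD88, and the signal ends in activation of NF-κB. IL-1β and IL-18 are made as inactive precursors that caspase-1 cleaves after a sensor such as NLRP3 has assembled an inflammasome, and IL-1 receptor antagonist occupies IL1R1 without signaling. In the brain, microglia and infiltrating myeloid cells are known sources of IL-1, while astrocytes and endothelial cells are known responders.

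The RNA came from 3 mouse glioblastomas (T3, T4 and T5), each sorted for EGFR+ cells and split either by PDGFRA (PDGFRA+ and PDGFRA-) or by galectin-1 (GAL1+ and GAL1-), which makes 4 populations. This gave 12 libraries, 3 for each population and 1 for each population of each tumor. All tumors arose in mice with a conditional human *EGFR* transgene, loss of *Cdkn2a* and a conditional luciferase reporter, and were started by stereotactic injection of a lentivirus carrying Cre. The mice were adults of both sexes on a mixed background of 5 strains (Balb/cJ, SJL, FVBN/J, 129S4 and C57Bl/6J), and the tumors were taken at end stage. The paper describes a vector with Cre alone and another that also carries TGFα, and which of them started these 3 tumors is not stated in the sources used here. The RNA was sequenced from a stranded total RNA kit, and reads were mapped to the mouse genome, so *Egfr* is the mouse gene. Whether reads of the human transgene were counted on it was not tested. The deposited values are log2 CPM, the log2 of counts scaled to the library size. Reads recovered from them ran from 9851175 to 24117541 per library. Every member was above a floor of 3 reads in all 12 libraries.

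The genes of the sorted proteins were looked at in each library before the members. *Pdgfra* stood at a log2 CPM of 10.81, 10.13 and 9.95 in the PDGFRA+ libraries of T3, T4 and T5, at 10.81, 10.34 and 10.49 in GAL1-, at 10.11, 8.62 and 7.36 in PDGFRA- and at 8.95, 6.74 and 7.05 in GAL1+. The GAL1- libraries thus held as much *Pdgfra* RNA as the PDGFRA+ libraries, and the PDGFRA- library of T3 overlapped them. *Lgals1*, which encodes galectin-1, stood at 7.95, 7.64 and 7.41 in GAL1+ libraries, 6.05, 6.28 and 6.81 in GAL1-, 6.41, 6.85 and 7.25 in PDGFRA+ and 6.99, 6.98 and 7.34 in PDGFRA-. It was higher in every GAL1+ library than in every other library, by little in T5. *Egfr* was at 10.65, 10.46 and 10.42 in GAL1-, 10.50, 10.11 and 9.93 in PDGFRA+, 10.18, 10.02 and 8.16 in PDGFRA- and 9.02, 8.53 and 7.68 in GAL1+ libraries. In GAL1+ against GAL1- cells limma gave log2 fold changes of −2.10 for *Egfr* (adjusted p 0.000461), −2.97 for *Pdgfra* (0.000258) and 1.29 for *Lgals1* (0.000967), each in the same direction in 3 of 3 tumors.

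CD45 is the leukocyte protein that *Ptprc* encodes. The paper calls the sorted cells CD45-negative in its results. Its methods for flow cytometry of brain tumors likewise define tumor cells as negative for CD45 and positive for human EGFR. Its description of this sort lists an EGFR antibody, used with one to PDGFR or to galectin-1, and no CD45 antibody. *Ptprc* RNA was present in every library, at a log2 CPM of 8.21, 8.74 and 9.0 in GAL1+, 7.08, 6.65 and 8.66 in PDGFRA-, 6.11, 7.33 and 7.31 in PDGFRA+ and 3.70, 5.18 and 4.94 in GAL1- libraries of T3, T4 and T5. The mean log2 CPM of 12 pan-leukocyte genes (all 12 in the table) was 7.73, 7.96 and 8.19 in GAL1+, 6.43, 5.60 and 7.83 in PDGFRA-, 5.56, 6.78 and 6.76 in PDGFRA+ and 2.48, 3.85 and 3.56 in GAL1- libraries. For this list and those that follow, the most abundant gene is the one with the highest mean log2 CPM over the 12 libraries, and populations in which another gene was higher are named. Here it was *Lcp1*, with *Laptm5* above it in GAL1+ (group means 9.66 and 9.44) and in PDGFRA+ (8.13 and 7.82). GAL1+ libraries were at the top and GAL1- libraries at the bottom in each tumor. Within the PDGFRA- group, the T5 library reached the level of the GAL1+ libraries, whereas the T4 library was below the PDGFRA+ library of its own tumor. In bulk RNA, fewer cells of a type and less RNA per cell cannot be told apart.

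Population differences were tested with limma on all 18180 genes with the tumor as a block, and a gene was called where its p, adjusted over all genes by the Benjamini-Hochberg method, was under 0.05. The 5 comparisons share samples, so their results are given side by side and are not independent of one another. The comparison of GAL1+ with GAL1- cells asks what differs with the galectin-1 sort, and it called 7 of the 9 members, 6 higher and 1 lower in GAL1+. Among all genes, 58.2% were called, 28.9% higher and 29.3% lower, and the median log2 fold change was 1.63 for the members and −0.03 for all genes. With the sort on one marker set against the sort on the other, PDGFRA+ against GAL1+ cells called 5 members, 1 higher and 4 lower in PDGFRA+, where 38.0% of all genes were called, 20.9% higher and 17.0% lower. The median log2 fold change there was −0.78 for the members and 0.01 for all genes. PDGFRA- against GAL1+ cells called 2 members, both lower in PDGFRA-, where 20.1% of all genes were called, 13.2% higher and 6.91% lower, with medians of −0.64 for the members and 0.03 for all genes. PDGFRA+ against GAL1- cells called 4 members, all 4 higher in PDGFRA+, where 8.27% of all genes were called, 8.26% higher and 0.0110% lower, with medians of 0.85 for the members and −0.02 for all genes. The near absence of lower genes there depended on the fit: 1502 genes were higher and 2 lower with all 4 populations in the fit, and 2385 higher and 1001 lower with only the 2 compared.

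The last comparison, PDGFRA+ with PDGFRA- cells, asks what differs with the PDGFRA sort, and limma called 0 of 9 members and 0 of all genes (0%). At an unadjusted p under 0.05 there were 2137 genes, and *Il1r1* was the 1 member among them. *Pdgfra* itself was higher in PDGFRA+ cells in 3 of 3 tumors, with a log2 fold change of 1.60 (SE 0.41) and an adjusted p of 0.249. The members' median was −0.03 and that of all genes −0.02. For 6 of the 9 members (*Il1a*, *Il1b*, *Il1rn*, *Nlrp3*, *Casp1* and *Myd88*), the difference was positive in T4 and negative in T3 and T5, the same signs as for *Ptprc*. The 5 genes called when the PDGFRA- library of T4 was left out included none of the members.

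Several of these counts rested on single tumors. Without T3, 0 members were called in PDGFRA+ against GAL1+, 0 in PDGFRA- against GAL1+ and 0 in PDGFRA+ against GAL1- (limma, with 5970, 4670 and 2549 of all genes at an unadjusted p under 0.05), and the GAL1+ against GAL1- count fell to 6. The loss was not particular to the members: of all genes, 2110, 788 and 0 were called in those 3 fits, from 6900, 3652 and 1504 with T3. In GAL1+ against GAL1-, 8095 of all genes were called without T3, from 10578 with it. The PDGFRA+ against GAL1+ count was 3 without T5 and 6 without T4, with 4267 and 4863 of all genes called, from 6900. For PDGFRA- against GAL1+ the count of members was 0 without T4 or without the T4 PDGFRA- library alone. Of all genes, 0 and 1026 were called in those fits, and 3649 and 4655 had an unadjusted p under 0.05 in limma. Members called there were 4 without T5 and 6 without the T5 PDGFRA- library alone, with 3647 and 5837 of all genes called. Without T5, 3 members and 717 of all genes were called in PDGFRA+ against GAL1-. Over the 3 fits that left out a tumor, log2 fold changes there were 3.72 to 4.27 for *Il1a* and 2.66 to 2.72 for *Il1b*. They were 3.16 to 3.19 for *Il1rn* and 2.85 to 2.89 for *Nlrp3*. In PDGFRA- against GAL1+, 5 such fits, with those lacking a single PDGFRA- library, gave −2.68 to −1.14 for *Il1a* and −1.77 to −0.71 for *Nlrp3*. With no block for the tumor, libraries of a tumor were not paired. Members called were then 6 in GAL1+ against GAL1-, 2 in PDGFRA+ against GAL1+ and 0 in PDGFRA- against GAL1+. There were 4 in PDGFRA+ against GAL1- and 0 in PDGFRA+ against PDGFRA-. Of all genes, 8392, 3154, 725, 612 and 0 were called in the same order, from 10578, 6900, 3652, 1504 and 0 with the block. The comparisons with 0 members called had 4390 and 640 genes at an unadjusted p under 0.05 in limma.

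**Figure D1:**
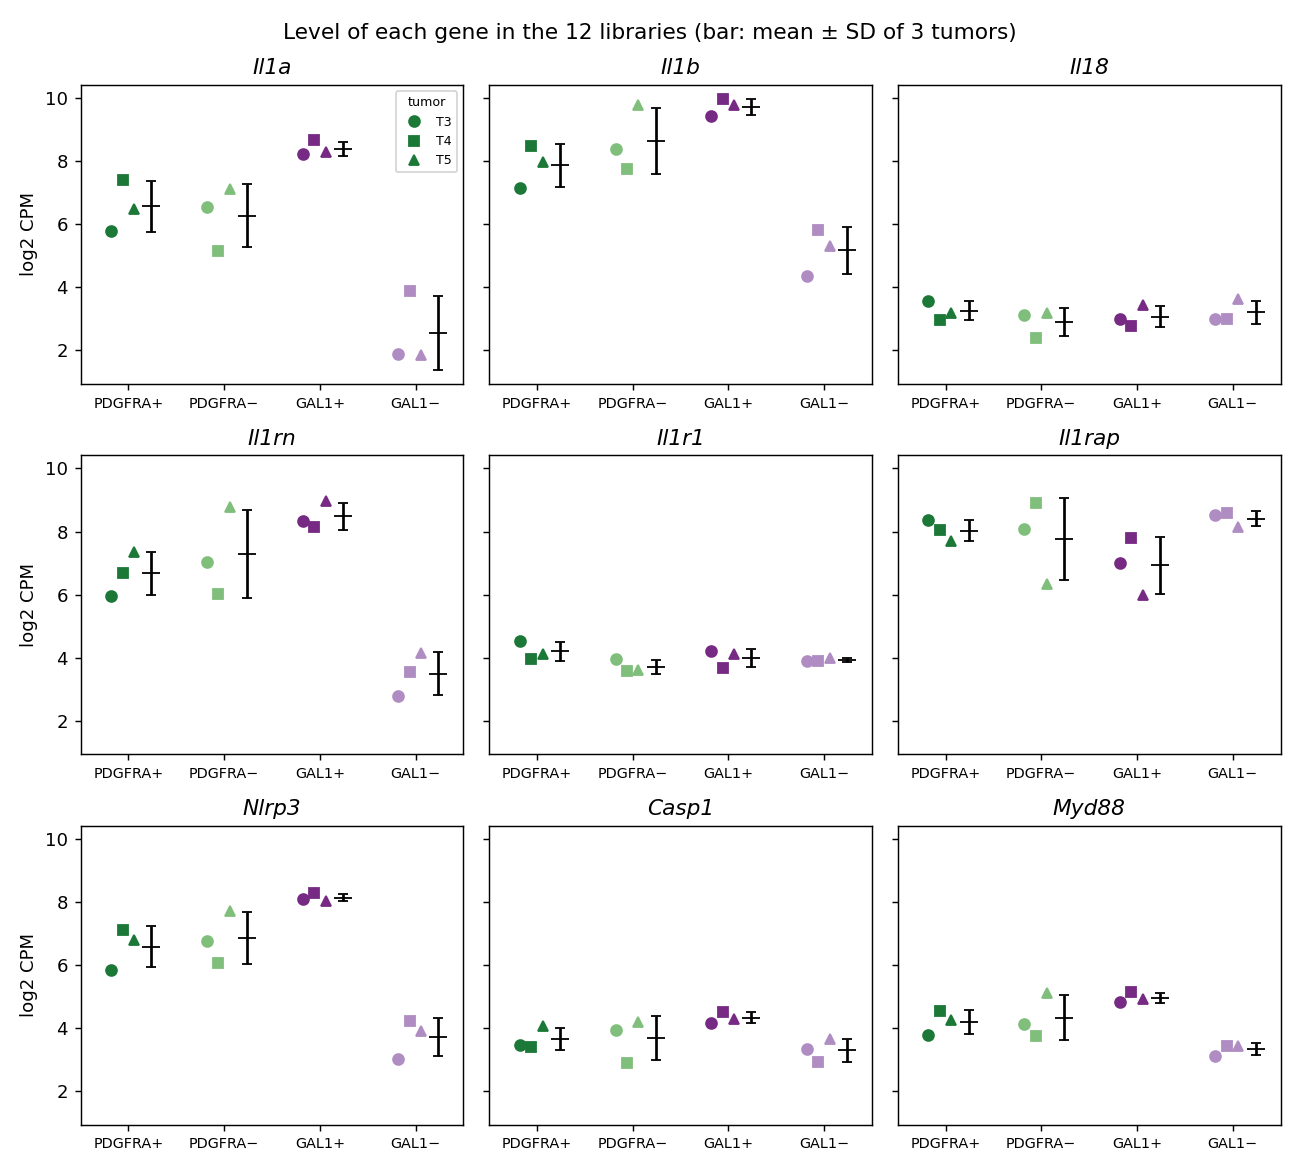
Level of each of the 9 members in the 12 libraries, as log2 CPM, by population, with 1 point per tumor and the mean of 3. *Il1a*, *Il1b*, *Il1rn* and *Nlrp3* span 5.24 to 6.79 log2 units over the libraries, and *Il18* and *Il1r1* span 1.24 and 0.95.

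The ligand gene *Il1a* encodes IL-1α, which is active without cleavage and is released from damaged cells. Its log2 CPM was 8.23, 8.65 and 8.28 in the GAL1+ libraries of T3, T4 and T5, 5.79, 7.41 and 6.47 in PDGFRA+, 6.54, 5.16 and 7.12 in PDGFRA- and 1.87, 3.89 and 1.86 in GAL1-. All GAL1+ libraries were above all others and all GAL1- libraries below all others, while PDGFRA+ and PDGFRA- overlapped. *Il1a* was 57.6-fold higher in GAL1+ than in GAL1- cells, a log2 fold change of 5.85 (SE 0.62, adjusted p 6.94e-05), in 3 of 3 tumors, and was called under all 10 alternative settings (adjusted p 1.65e-05 to 0.00481). PDGFRA+ cells differed from GAL1+ cells by a log2 fold change of −1.83 (SE 0.62, adjusted p 0.0417), lower in 3 of 3 tumors. That call held in 5 of 10 alternatives (adjusted p 0.00362 to 0.254) and ended without T3 (0.254), without T5 (0.125), with no block for the tumor (0.0633), with no trend (0.0624) and under quantile normalization (0.0623). For PDGFRA- against GAL1+ cells it was −2.11 (SE 0.62, adjusted p 0.0406), lower in 3 of 3 tumors and called in 5 of 12 alternatives (0.0141 to 0.169). This call ended without T3 (0.169), T4 (0.0814), T5 (0.0587), the T4 PDGFRA- library alone (0.0816), the tumor block (0.0795) or the trend (0.0647), and under quantile normalization (0.055). *Il1a* was also 16.2-fold higher in PDGFRA+ than in GAL1- cells, a log2 fold change of 4.02 (SE 0.62, adjusted p 0.00366), in 3 of 3 tumors, and the call held in 8 of 10 alternatives (3.31e-06 to 0.095), ending without T3 (0.095) and without T5 (0.0549).

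*Il1b* encodes IL-1β, the precursor that caspase-1 cleaves. In T3, T4 and T5 its log2 CPM was 9.43, 9.95 and 9.77 in GAL1+, 8.38, 7.76 and 9.78 in PDGFRA-, 7.13, 8.48 and 7.98 in PDGFRA+ and 4.36, 5.82 and 5.32 in GAL1- libraries. The GAL1- libraries were below all others, and the T5 PDGFRA- library lay within the range of the GAL1+ libraries. *Il1b* was 23.4-fold higher in GAL1+ than in GAL1- cells, with a log2 fold change of 4.55 (SE 0.44, adjusted p 5.08e-05), in 3 of 3 tumors and in all 10 alternatives (2.05e-05 to 0.00427). Against GAL1+ cells, PDGFRA+ cells had a log2 fold change of −1.85 (SE 0.44, adjusted p 0.0106), lower in 3 of 3 tumors, which was called in 9 of 10 alternatives (0.00342 to 0.137), all except the one without T3 (0.137). PDGFRA+ cells were 6.49-fold higher than GAL1- cells, a log2 fold change of 2.70 (SE 0.44, adjusted p 0.0045), with differences of 2.78, 2.66 and 2.66 in the 3 tumors, called in 9 of 10 alternatives (6.05e-07 to 0.115) and not without T3 (0.115). PDGFRA- against GAL1+ did not pass, at −1.08 (SE 0.44, adjusted p 0.106), with tumor differences of −1.05, −2.19 and 0.01, but was called without the T5 PDGFRA- library (0.0158, range over 12 alternatives 0.0158 to 0.338). PDGFRA+ against PDGFRA- gave −0.77 (SE 0.44, adjusted p 0.516), with tumor differences of −1.25, 0.73 and −1.80.

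The difference between *Il1a* and *Il1b* within a library, on the log2 CPM scale, was −1.35, −1.08 and −1.51 in PDGFRA+, −1.84, −2.59 and −2.66 in PDGFRA-, −1.21, −1.30 and −1.49 in GAL1+ libraries and −2.49, −1.94 and −3.47 in GAL1- libraries of T3, T4 and T5. The PDGFRA+ and GAL1+ libraries were all nearer to equality than the PDGFRA- and GAL1- libraries. No test was made of this.

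*Il18* encodes the other precursor that caspase-1 cleaves. Its log2 CPM was 3.57, 2.97 and 3.19 in PDGFRA+, 3.13, 2.38 and 3.17 in PDGFRA-, 2.99, 2.78 and 3.44 in GAL1+ libraries and 2.99, 3.01 and 3.63 in GAL1- libraries of T3, T4 and T5. All 4 populations overlapped, and the lowest value, in the T4 PDGFRA- library, still came from 49 reads. *Il18* was called in none of the 5 comparisons. GAL1+ against GAL1- gave a log2 fold change of −0.14 (95% confidence interval −0.60 to 0.33, adjusted p 0.592), so that the interval holds no change of the size seen for *Il1b*.

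The antagonist gene *Il1rn* encodes the protein that blocks IL1R1. Its log2 CPM was 8.33, 8.15 and 8.97 in GAL1+, 7.03, 6.02 and 8.78 in PDGFRA-, 5.97, 6.68 and 7.34 in PDGFRA+ and 2.79, 3.55 and 4.15 in GAL1- libraries of T3, T4 and T5. The GAL1- libraries were again below all others, GAL1+ was highest in each tumor, and the T5 PDGFRA- library lay among the GAL1+ libraries. *Il1rn* was 31.7-fold higher in GAL1+ than in GAL1- cells, a log2 fold change of 4.98 (SE 0.38, adjusted p 3.93e-05), in 3 of 3 tumors and in all 10 alternatives (1.61e-05 to 0.0025). The PDGFRA+ to GAL1+ value was −1.82 (SE 0.38, adjusted p 0.00685), lower in 3 of 3 tumors and called in 8 of 10 alternatives (0.00333 to 0.113), but not without T3 (0.113) or without the tumor block (0.0638). Between PDGFRA+ and GAL1- it was 3.17 (SE 0.38, 8.99-fold, adjusted p 0.00199), higher in 3 of 3 tumors and called in 9 of 10 alternatives (6.05e-07 to 0.0805), but not without T3 (0.0805). PDGFRA- against GAL1+ narrowly failed at −1.20 (SE 0.38, adjusted p 0.0536), lower in 3 of 3 tumors, and passed in 4 of 12 alternatives (0.00925 to 0.259), among them without T5 (0.0406) and without the T5 PDGFRA- library alone (0.00925).

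Antagonist and ligand moved together from library to library. On the log2 CPM scale, *Il1rn* minus *Il1b* was −1.16, −1.80 and −0.64 in PDGFRA+, −1.35, −1.73 and −1.0 in PDGFRA-, −1.10, −1.80 and −0.80 in GAL1+ libraries and −1.57, −2.27 and −1.17 in GAL1- libraries of T3, T4 and T5. The mean over the 12 libraries was −1.37 (SD 0.48), and T4 was lowest and T5 highest in each population. This difference thus followed the tumor more than the population, although each gene alone spanned more than 5 log2 units.

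The receptor gene *Il1r1* encodes the signaling receptor for both IL-1 ligands. Its log2 CPM was 4.53, 3.96 and 4.11 in PDGFRA+, 3.96, 3.58 and 3.60 in PDGFRA-, 4.20, 3.67 and 4.13 in GAL1+ libraries and 3.91, 3.90 and 3.99 in GAL1- libraries of T3, T4 and T5. All values lay within 0.95 log2 units and neighboring populations overlapped. No comparison called *Il1r1*. GAL1+ against GAL1- gave a log2 fold change of 0.07 (95% confidence interval −0.27 to 0.41, adjusted p 0.732). PDGFRA+ against PDGFRA- gave 0.49 (SE 0.15, unadjusted p 0.00988, limma, adjusted p 0.304), higher in 3 of 3 tumors by 0.57, 0.38 and 0.51.

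*Il1rap* encodes the accessory chain that IL1R1 needs for signaling, which the receptors for IL-33 and IL-36 also use. Unlike *Il1a* and *Il1b*, it had its highest group mean in GAL1- and its lowest in GAL1+. Levels in log2 CPM were 8.51, 8.58 and 8.15 in GAL1-, 8.37, 8.04 and 7.69 in PDGFRA+, 8.07, 8.89 and 6.34 in PDGFRA- and 7.0, 7.79 and 5.99 in GAL1+ libraries of T3, T4 and T5. GAL1+ was the lowest population in each tumor and lay below all GAL1- libraries, and neighboring populations in the order overlapped. *Il1rap* was 2.8-fold lower in GAL1+ than in GAL1- cells, with a log2 fold change of −1.49 (SE 0.37, adjusted p 0.00643), lower in 3 of 3 tumors. The call held in 8 of 10 alternatives (0.00242 to 0.0743) and ended without T3 (0.0743) and with no tumor block (0.0549). PDGFRA+ against GAL1+ gave 1.11 (SE 0.37, adjusted p 0.0391), higher in 3 of 3 tumors, and held in 5 of 10 alternatives (0.0134 to 0.258), ending without T3 (0.258), without T5 (0.0951), with no tumor block (0.192), with no trend (0.0599) and under median centring (0.0519). For PDGFRA- against GAL1+ cells it was 0.84 (SE 0.37, adjusted p 0.128), with passes in 3 of 12 alternatives (0.0153 to 0.46), among them without T5 (0.0498) and without the T5 PDGFRA- library alone (0.0153).

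Of 15 further ligands, receptors and decoys of the family, 9 were in the table (*Il36a*, *Il36b*, *Il36g*, *Il36rn*, *Il1f10* and *Il1rapl2* were not). In GAL1+ against GAL1- cells, 4 were called higher and 1 lower, and 5 of 9 is close to the 58.2% called among all genes. *Il1rl2*, the IL-36 receptor, had the largest log2 fold change at 3.67 (adjusted p 9.83e-05), *Il1rapl1* was lower at −1.81 (0.00144), *Sigirr*, an inhibitory receptor, was at 1.74 (0.00468), and *Il1r2*, the decoy receptor, was at 1.35 (0.00235). *Il1r2* was the most abundant of the 9, except in PDGFRA+, where *Il18bp* was higher (4.75 and 4.61). Against GAL1+ cells, PDGFRA+ cells had 1 higher (*Il1rapl1*, 1.44) and 3 lower (*Il1rl2* −1.34, *Il1r2* −1.0 and *Il18bp*, a soluble inhibitor of IL-18, −0.78). Only *Il18bp* was called in PDGFRA- against GAL1+ (−0.71, adjusted p 0.025), and only *Il1rl2* in PDGFRA+ against GAL1- (2.33, 0.0074). The decoy *Il1r2* had its highest group mean in PDGFRA-, with log2 CPM of 6.19, 5.12 and 7.10 there, 4.36, 4.19 and 5.29 in PDGFRA+, 5.11, 5.19 and 6.53 in GAL1+ and 3.65, 4.32 and 4.83 in GAL1- libraries. PDGFRA+ against PDGFRA- gave −1.53 (SE 0.27, adjusted p 0.204) for it and did not pass.

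The inflammasome sensor gene *Nlrp3* was at a log2 CPM of 8.11, 8.28 and 8.04 in GAL1+, 6.78, 6.08 and 7.70 in PDGFRA-, 5.86, 7.11 and 6.81 in PDGFRA+ and 3.04, 4.23 and 3.91 in GAL1- libraries of T3, T4 and T5. GAL1+ libraries were above and GAL1- libraries below all others, and the PDGFRA+ and PDGFRA- groups overlapped. *Nlrp3* was 21.4-fold higher in GAL1+ than in GAL1- cells, a log2 fold change of 4.42 (SE 0.39, adjusted p 4.31e-05), in 3 of 3 tumors and in all 10 alternatives (1.69e-05 to 0.00284). PDGFRA+ against GAL1+ gave −1.55 (SE 0.39, adjusted p 0.0133), lower in 3 of 3 tumors and called in 9 of 10 alternatives (0.00483 to 0.155), not without T3 (0.155). The PDGFRA- to GAL1+ value was −1.29 (SE 0.39, adjusted p 0.0442), lower in 3 of 3 tumors and called in 5 of 12 alternatives (0.0133 to 0.184), not without T3 (0.184), T4 (0.152), the T4 PDGFRA- library alone (0.114), the tumor block (0.109) or the trend (0.0695), nor under quantile normalization (0.072) or with only these populations in the fit (0.0517). Between PDGFRA+ and GAL1- it was 2.87 (SE 0.39, 7.3-fold, adjusted p 0.00244), with tumor differences of 2.82, 2.88 and 2.90, and was called in 9 of 10 alternatives (7.17e-07 to 0.0805), not without T3 (0.0805).

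*Casp1*, the protease of the inflammasome, varied less. Its log2 CPM was 4.17, 4.53 and 4.30 in GAL1+, 3.96, 2.91 and 4.21 in PDGFRA-, 3.48, 3.42 and 4.08 in PDGFRA+ and 3.33, 2.92 and 3.66 in GAL1- libraries of T3, T4 and T5. GAL1+ was the highest population in each tumor and lay above all GAL1- libraries, while neighbors in the order overlapped. *Casp1* was 2.05-fold higher in GAL1+ than in GAL1- cells, with a log2 fold change of 1.03 (SE 0.26, adjusted p 0.00734), in 3 of 3 tumors and all 10 alternatives (0.00527 to 0.0453). PDGFRA+ against GAL1+ gave −0.67 (SE 0.26, adjusted p 0.067), which did not pass, although it did in 3 of 10 alternatives (0.0278 to 0.236), namely the fit of only these populations, quantile normalization and median centring. The remaining comparisons did not call it.

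Of 20 further inflammasome sensors, adaptors, caspases and pore formers, 18 were in the table (*Nlrp6* and *Nlrp12* were not). In GAL1+ against GAL1- cells, 14 were called higher and 3 lower, with a median log2 fold change of 3.71. The sensors *Naip2* (5.64, adjusted p 3.98e-05) and *Nlrc4* (5.42, 3.93e-05) and the adaptor *Pycard* (5.39, 4.85e-05) had the largest values, and the most abundant gene, the ATP-gated channel *P2rx7*, was not called (−0.31, 0.0724). *Txnip*, a regulator of redox state that binds NLRP3, was above *P2rx7* in GAL1+ (group means 7.33 and 6.39) and PDGFRA- (6.77 and 6.50) and was called higher in GAL1+ than in GAL1- (2.77, 4.26e-05). A total of 2 inflammasome genes were higher and 13 lower in PDGFRA+ than in GAL1+ cells (median −1.54), led by *Mefv* (−2.30), *Naip2* (−1.82) and *Naip5* (−1.80). 5 were lower and 0 higher in PDGFRA- than in GAL1+ cells (median −0.99, with 13 of 18 at an unadjusted p under 0.05), led by *Nlrp1a* (−1.69), *Nlrc4* (−1.39) and *Aim2* (−1.39). 12 were higher and 0 lower in PDGFRA+ than in GAL1- cells (median 1.88, 13 of 18 at an unadjusted p under 0.05), led by *Nlrc4* (3.87), *Naip2* (3.82) and *Pycard* (3.80). In PDGFRA+ against PDGFRA- cells, 0 were called by limma and 3 had an unadjusted p under 0.05. Without T3, 0 of all genes were called in PDGFRA+ against GAL1-, so the counts of every gene list in that comparison fall to 0. The same holds for PDGFRA- against GAL1+ without T4.

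*Myd88* encodes the adaptor that IL-1 receptors share with most Toll-like receptors. Its log2 CPM was 4.83, 5.15 and 4.93 in GAL1+, 4.12, 3.76 and 5.12 in PDGFRA-, 3.78, 4.54 and 4.25 in PDGFRA+ and 3.12, 3.44 and 3.45 in GAL1- libraries of T3, T4 and T5. The GAL1- libraries were below all others, and the T5 PDGFRA- library lay among the GAL1+ libraries. *Myd88* was 3.1-fold higher in GAL1+ than in GAL1- cells, a log2 fold change of 1.63 (SE 0.28, adjusted p 0.000854), in 3 of 3 tumors and all 10 alternatives (0.000578 to 0.0253). PDGFRA+ against GAL1+ gave −0.78 (SE 0.28, adjusted p 0.0517), lower in 3 of 3 tumors, and narrowly failed, yet it passed in 6 of 10 alternatives (0.00861 to 0.313), among them without T4 (0.0356). For PDGFRA- against GAL1+ it was −0.64 (adjusted p 0.131) and passed in 2 of 12 alternatives (0.0106 to 0.597), without T5 (0.0427) and without the T5 PDGFRA- library alone (0.0106).

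**Figure D2:**
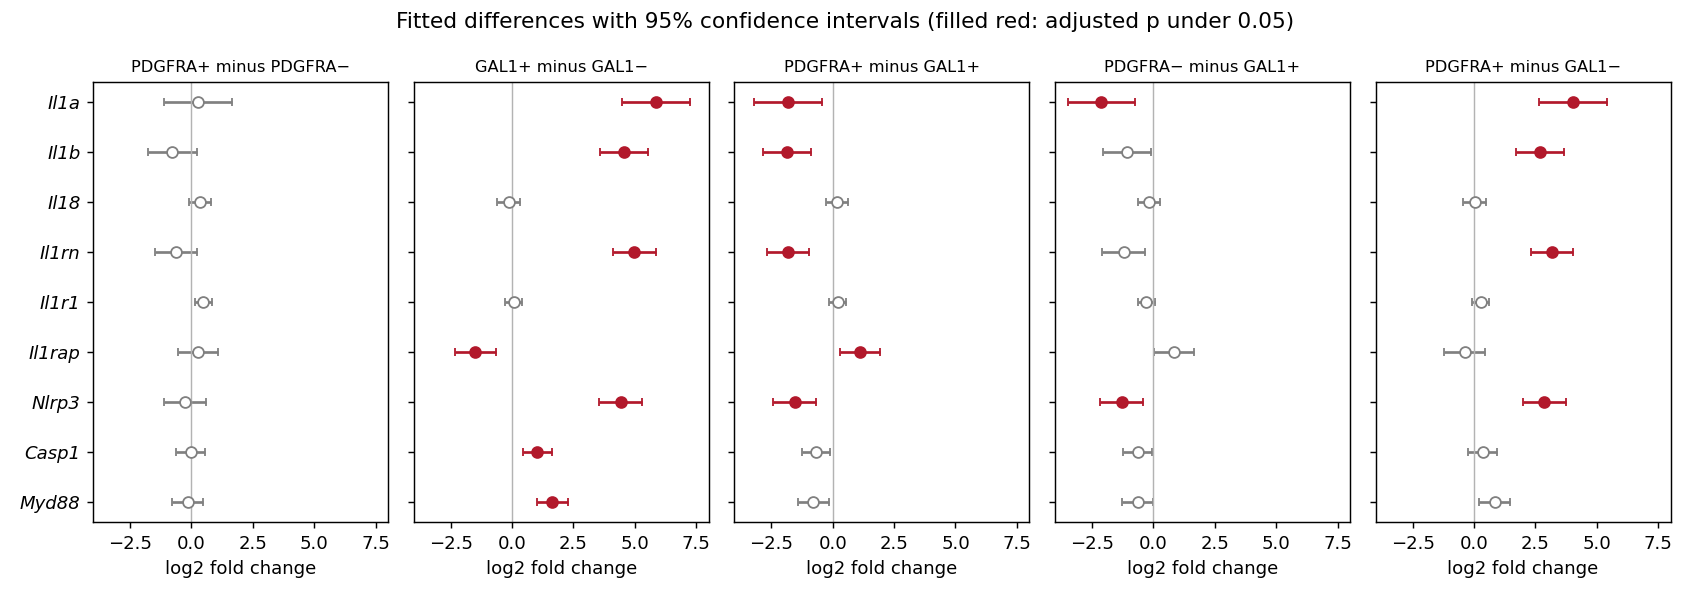
Log2 fold change of each member in the 5 comparisons, with its 95% confidence interval from limma, and filled points where the adjusted p over all genes was under 0.05. In GAL1+ against GAL1- cells the values run from −1.49 for *Il1rap* to 5.85 for *Il1a*.

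Below MyD88, a list of 24 kinases, ubiquitin ligases and NF-κB components was read in the same way, all 24 in the table. In GAL1+ against GAL1- cells, 14 were called higher and 3 lower (median 0.71, with 28.9% and 29.3% of all genes), led by the kinase *Irak2* (3.80, adjusted p 4.31e-05), its inhibitory relative *Irak3* (2.85, 0.00033) and the NF-κB subunit *Nfkb2* (2.32, 3.93e-05). The most abundant, the scaffold *Sqstm1*, was at 1.96 (3.93e-05). 2 were higher and 12 lower in PDGFRA+ than in GAL1+ cells (median −0.41), led by *Irak2* (−1.5), *Irak3* (−1.48) and *Nfkb1* (−1.16), with *Sqstm1* at −0.98. 2 were higher and 6 lower in PDGFRA- than in GAL1+ cells (median −0.25), led by *Irak2* (−1.19), *Nfkb1* (−1.08) and *Nfkb2* (−0.92), with *Sqstm1* at −0.83. 4 were higher and 0 lower in PDGFRA+ than in GAL1- cells (limma, median 0.21, 9 of 24 at an unadjusted p under 0.05): *Irak2* (2.30), *Nfkb2* (1.25), *Nfkb1* (1.13) and *Sqstm1* (0.98). In PDGFRA+ against PDGFRA- cells 0 were called by limma and 5 had an unadjusted p under 0.05.

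A list of 12 textbook NF-κB targets that IL-1 induces was also in the table in full. In GAL1+ against GAL1- cells, 11 were called higher and 0 lower (median 1.81, with 28.9% and 29.3% of all genes), led by *Ptgs2* (4.59, adjusted p 3.93e-05), *Zc3h12a* (4.33, 4.55e-05) and *Il6* (2.83, 0.000337), with the most abundant, *Tnfaip3*, at 2.38 (7.21e-05). *Ptgs2* was above *Tnfaip3* in GAL1+ (group means 9.33 and 8.96) and PDGFRA- (8.14 and 7.93), and *Nfkbiz* was above it in GAL1- (7.10 and 6.57). *Lcn2* was the target not called there, at −0.05 (0.898). 9 targets were lower and 0 higher in PDGFRA+ than in GAL1+ cells (median −0.77, 9 of 12 at an unadjusted p under 0.05), led by *Ptgs2* (−1.78), *Zc3h12a* (−1.47) and *Tnfaip3* (−1.12). 7 were lower and 0 higher in PDGFRA- than in GAL1+ cells (median −0.76, 10 of 12 at an unadjusted p under 0.05), led by *Zc3h12a* (−1.5), *Icam1* (−1.15) and *Tnfaip3* (−1.03). 8 were higher and 0 lower in PDGFRA+ than in GAL1- cells (median 1.05, 10 of 12 at an unadjusted p under 0.05), led by *Zc3h12a* (2.86), *Ptgs2* (2.81) and *Il6* (2.0). In PDGFRA+ against PDGFRA- cells, 0 were called by limma and 0 had an unadjusted p under 0.05. Other stimuli, such as Toll-like receptor ligands, act on these targets as well.

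Marker lists of other cell types were then set beside the members. The shares of all genes given with the inflammasome list belong beside these counts as well. All 12 pan-leukocyte genes were called higher in GAL1+ than in GAL1- cells (median log2 fold change 4.51), all 12 lower in PDGFRA+ than in GAL1+ (−1.58), all 12 higher in PDGFRA+ than in GAL1- (2.89), and 3 of 12 lower in PDGFRA- than in GAL1+ (−1.30, with all 12 at an unadjusted p under 0.05). *Ptprc*, which is among them, had a log2 fold change of 4.04 (SE 0.37, adjusted p 4.77e-05) in GAL1+ against GAL1- cells. All 8 microglia genes were also higher in GAL1+ than in GAL1- cells (median 4.61), and their mean log2 CPM was 7.0, 7.55 and 7.08 in GAL1+, 5.10, 6.47 and 5.74 in PDGFRA+, 5.54, 4.68 and 6.36 in PDGFRA- and 2.37, 3.74 and 2.72 in GAL1- libraries of T3, T4 and T5. All 8 macrophage and monocyte genes were higher there too (median 5.81), at means of 6.91, 6.70 and 6.77 in GAL1+, 4.44, 5.13 and 5.12 in PDGFRA+, 5.46, 4.61 and 6.37 in PDGFRA- and 0.31, 1.20 and 1.78 in GAL1- libraries, with *Lyz2* the most abundant except in GAL1-, where it was *Tgfbi*. PDGFRA+ cells had 5 microglia genes (median −1.56) and 8 macrophage genes (−1.86) lower than GAL1+ cells, PDGFRA- cells had 6 (−1.75) and 4 (−1.35) lower than GAL1+ cells, and 7 (2.95) and 7 (4.08) were higher in PDGFRA+ than in GAL1-. The part of leukocyte RNA in the members' differences was not tested.

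The other lists had smaller medians in GAL1+ against GAL1- cells, or medians of the opposite sign. Of all genes, 28.9% were called higher and 29.3% lower in that comparison. The shares were 20.9% and 17.0% in PDGFRA+ against GAL1+, 13.2% and 6.91% in PDGFRA- against GAL1+, and 8.26% and 0.0110% in PDGFRA+ against GAL1-. Counts near these shares, such as 2 of 6 astrocyte genes or 2 of 9 T and NK cell genes, say little about a cell type. Of 8 neutrophil genes, 5 were in the table (*Ly6g*, *Retnlg* and *Camp* were not), and 3 were higher in GAL1+ than in GAL1- cells, with means of 2.95, 3.01 and 3.45 against 1.12, 0.71 and 2.35, 1.25, 1.73 and 2.63 in PDGFRA+ and 2.40, 2.09 and 3.74 in PDGFRA- libraries, and *Csf3r* the most abundant except in GAL1-, where it was *S100a9*. 4 of the 5 were lower in PDGFRA+ and 1 in PDGFRA- than in GAL1+ cells, and 1 was higher in PDGFRA+ than in GAL1-. Of 8 dendritic cell genes, 6 were in the table (*Clec9a* and *Cd209a* were not), and 4 were higher in GAL1+ than in GAL1- cells, with *Cd74* the most abundant and means of 4.96, 5.61 and 5.83 against 2.78, 4.16 and 4.25. 2 of these 6 were lower in PDGFRA+ and 1 was higher in PDGFRA- than in GAL1+ cells, with 2 higher in PDGFRA+ than in GAL1-. Of 9 T and NK cell genes, all in the table, 2 were higher in that comparison (median −0.12), and the mean was 0.54, 0.66 and 1.61 in GAL1+ and −0.54, 1.41 and 1.32 in GAL1- libraries, with *Cd4* the most abundant except in GAL1+, where it was *Klrb1c*. 1 was lower in PDGFRA+ and 2 were higher in PDGFRA- than in GAL1+ cells, and 1 was higher in PDGFRA+ than in GAL1-. Of 5 B cell genes only *Igkc* was in the table, and limma called it in 0 of the 5 comparisons, with 0 at an unadjusted p under 0.05. All 8 endothelial genes were higher in GAL1+ than in GAL1- cells (median 2.44), at means of 4.97, 5.10 and 3.97 against 2.13, 2.74 and 1.89, with *Flt1* the most abundant, and 7 of 8 were higher in PDGFRA+ than in GAL1- cells (median 1.88, all 8 at an unadjusted p under 0.05). Against GAL1+ cells limma called 0 of them in PDGFRA+ (median −0.49) and 0 in PDGFRA- (−0.59), with 0 and 1 at an unadjusted p under 0.05. Of 6 astrocyte genes, 2 were lower in GAL1+ than in GAL1- cells (median −0.47), at means of 4.79, 4.67 and 4.37 against 4.51, 5.54 and 5.82, with *Slc1a3* the most abundant in GAL1+ and PDGFRA- and *Slc1a2* in GAL1- and PDGFRA+, and 2 were higher in PDGFRA+ than in GAL1+ cells. All 6 oligodendrocyte progenitor genes, which PDGFRA+ tumor cells also express, were lower in GAL1+ than in GAL1- cells (median −2.92) and higher in PDGFRA+ than in GAL1+ (2.38), with 4 of 6 higher in PDGFRA- than in GAL1+ (1.69). Their mean log2 CPM was 8.44, 8.03 and 8.06 in PDGFRA+, 8.19, 7.63 and 6.76 in PDGFRA-, 6.92, 5.57 and 5.27 in GAL1+ libraries and 8.66, 8.36 and 8.66 in GAL1- libraries, with *Pdgfra* the most abundant except in GAL1+, where it was *Cspg4*. Their part in the members' differences was not tested. In no list did a gene fall to 3 reads or fewer in all 3 libraries of a population.

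**Figure D3:**
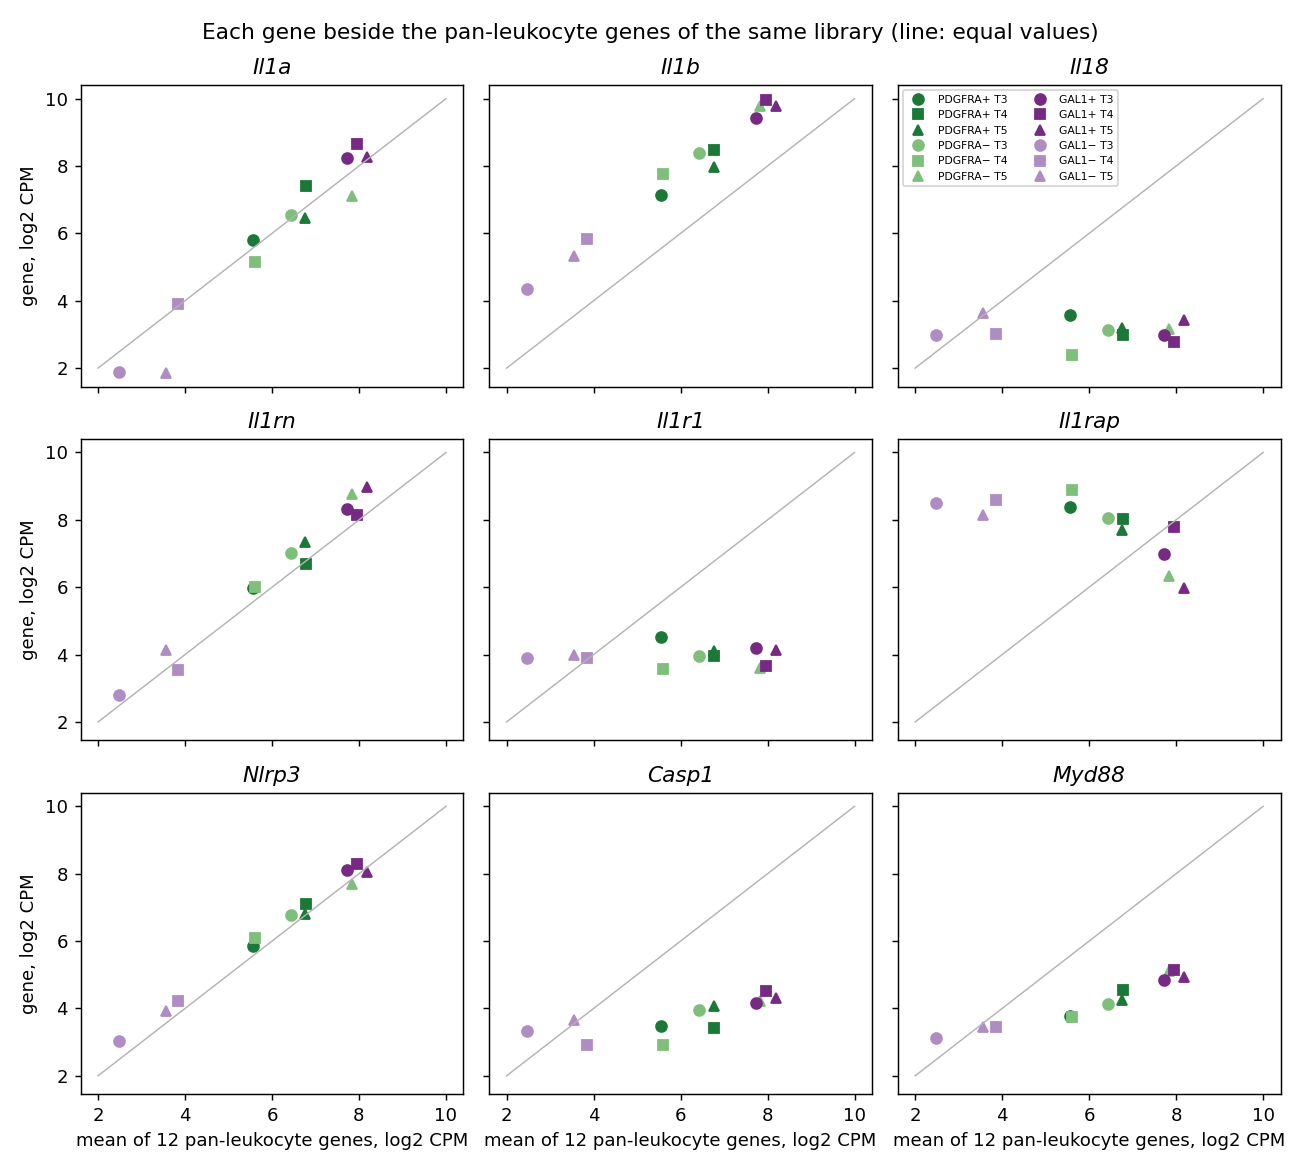
Level of each member (log2 CPM) against the mean log2 CPM of the 12 pan-leukocyte genes, with 1 point per library and the population shown by color. *Il1b*, *Il1rn*, *Nlrp3* and *Il1a* rise with the leukocyte mean across the 4 populations, whereas *Il18* and *Il1r1* stay level and *Il1rap* falls.

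Across the 12 libraries the members fell into those that kept a fixed distance from the pan-leukocyte mean and those that did not. The log2 CPM of *Nlrp3* minus that mean was 0.27 on average (SD 0.23), that of *Il1b* was 1.79 (SD 0.25) and that of *Il1rn* was 0.42 (SD 0.36). In *Il1b* the difference was 1.5 in PDGFRA+, 2.02 in PDGFRA-, 1.76 in GAL1+ libraries and 1.87 in GAL1- libraries on average. *Il1a* kept a looser distance (mean −0.12, SD 0.68), with group means of 0.19, −0.34, 0.42 and −0.76 in the same order. The distances of *Myd88* (SD 1.24), *Casp1* (SD 1.54), *Il1r1* (SD 1.93), *Il18* (SD 1.96) and *Il1rap* (SD 2.62) varied far more. Pearson's r with the pan-leukocyte mean over the 12 libraries was 0.995 for *Nlrp3*, 0.991 for *Il1b*, 0.987 for *Il1rn*, 0.970 for *Il1a*, 0.959 for *Myd88*, 0.738 for *Casp1*, −0.036 for *Il1r1*, −0.083 for *Il18* and −0.719 for *Il1rap*. For *Il1a*, r was higher with the microglia mean (0.995) than with the macrophage mean (0.951), and for *Il1rn* it was lower with the microglia mean (0.938) than with the macrophage mean (0.983). *Il1rap* had an r of 0.731 with the oligodendrocyte progenitor mean and 0.673 with the astrocyte mean. These points share tumors and the 4 populations, so r holds the differences between populations, and it is given as a description.

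Levels can be compared between genes only per length of transcript. On the scale of log2 CPM per kilobase of exon (exon lengths from GENCODE on GRCm38, with the exons of all isoforms joined), *Il1b* had the highest level of the 9 in the GAL1+ group at 8.79, ahead of *Il1a* at 7.40, *Nlrp3* at 6.12 and *Il1rn* at 6.01. In the GAL1- group, *Il1rap* had the highest level per kilobase at 4.91, ahead of *Il1b* at 4.24 and *Il18* at 3.16. *Il1r1* had the lowest level per kilobase in the PDGFRA+ (1.53), PDGFRA- (1.04) and GAL1+ (1.33) groups, and *Il1rn* the lowest in GAL1- (1.03). The per-kilobase level of *Casp1* was 3.75 in GAL1+ and 2.72 in GAL1-, and that of *Myd88* was 3.61 and 1.97. Isoforms shorter than the joined exons make these levels too low, most of all for genes with long alternative ends.

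Genes with the most similar pattern were found by Pearson's r over the 12 libraries after the tumor means were taken out, among 12998 genes. *Il1a* had *Ctse* and *Cxcl13* among the genes most like it (r 0.998 each). *Il1b* was most like *Rgs1*, *Ptger4* and *Fxyd5* (0.999 each), and *Il1rn* was most like *Pla2g7*, *Adora2b* and *Apobr* (0.999 each). *Nlrp3* was most like *Osm* (1.000), *Cd300lf* and *Tnfrsf1b* (0.999 each), and *Myd88* was most like *Sh3bp1* (0.995), *Chil1* (0.994) and *Sphk2* (0.993). *Il1rap* was most like *Prickle2* (0.994), *Klf9* (0.993) and *Gpm6b* (0.992). Likeness was weaker for *Casp1* (*Rap1gds1* 0.971, *Rps19-ps2* and *Rps19-ps1* 0.966 each), for *Il1r1* (*Castor2* 0.893 and *Lin9* 0.886) and for *Il18* (*Lin9* 0.869, *Pianp* 0.822 and *Ccne1* 0.813). The points share the 4 populations, so r holds differences between populations as well as variation within them.

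*Il1a* and *Il1b* are neighbors on chromosome 2, where *Il1rn* also lies, and *Il1r1* lies between *Il1r2* and *Il1rl2* on chromosome 1. *Casp1*, *Il18* and *Myd88* are on chromosome 9, *Casp1* next to *Casp4*, with *Nlrp3* on chromosome 11 and *Il1rap* on chromosome 16. Whether the counting of reads used the strand is not stated, so genes on the opposite strand were looked at for each member. *Gm14023*, opposite *Il1a*, had mean log2 CPM of −0.04 in PDGFRA+, −0.05 in PDGFRA-, 1.04 in GAL1+ libraries and −1.50 in GAL1- libraries, far under *Il1a* itself. *Gm20319*, opposite *Il1rap*, was at −0.92, −0.82, −3.08 and −0.21 in the same order. *Acaa1a*, which overlaps *Myd88*, was at 4.56, 4.70, 4.89 and 4.10, where *Myd88* itself was at 4.19, 4.33, 4.97 and 3.34, and the part of such reads in the *Myd88* values was not tested. *Il1bos*, opposite *Il1b*, was not in the table.

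The promoters of *Il1a*, *Il1b*, *Il1rn* and *Nlrp3* are printed because these 4 genes moved together over the libraries. All 9 members had a RefSeq promoter on GRCm38.p6, 300 bases that begin 250 bases before the start of the gene. Searched on both strands were a κB motif (GGGANTTTC, in 1.11% of 32851 promoters), a C/EBP motif (TTGCNNAA, 10.8%), a PU.1 motif (GAGGAAGT, 3.2%), an AP-1 motif (TGANTCA, 7.81%) and a TATA box (TATAAA, 13.6%). Capitals mark the matches. *Il1a* (chr2:129309923-129310222, minus strand) held an AP-1 match from −12 to −6 and a TATA match from −32 to −27 relative to the start. *Il1b* (chr2:129371090-129371389, minus strand) held a TATA match from −31 to −26. *Il1rn* (chr2:24336610-24336909, plus strand, the most upstream of its 3 starts) held an AP-1 match from −141 to −135, and *Nlrp3* (chr11:59542436-59542735, plus strand, the downstream of its 2 starts) held no match.

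Il1a: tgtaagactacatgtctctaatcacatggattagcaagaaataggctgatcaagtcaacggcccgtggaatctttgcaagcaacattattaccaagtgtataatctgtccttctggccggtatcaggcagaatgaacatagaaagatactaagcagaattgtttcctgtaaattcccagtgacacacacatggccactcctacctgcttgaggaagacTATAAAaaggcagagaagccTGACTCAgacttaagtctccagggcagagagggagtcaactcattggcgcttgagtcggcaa

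Il1b: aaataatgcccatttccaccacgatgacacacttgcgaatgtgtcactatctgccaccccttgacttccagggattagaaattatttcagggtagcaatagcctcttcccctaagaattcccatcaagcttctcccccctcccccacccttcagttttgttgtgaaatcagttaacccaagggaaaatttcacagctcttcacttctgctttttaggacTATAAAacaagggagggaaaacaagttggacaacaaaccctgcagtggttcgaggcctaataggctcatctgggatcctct

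Il1rn: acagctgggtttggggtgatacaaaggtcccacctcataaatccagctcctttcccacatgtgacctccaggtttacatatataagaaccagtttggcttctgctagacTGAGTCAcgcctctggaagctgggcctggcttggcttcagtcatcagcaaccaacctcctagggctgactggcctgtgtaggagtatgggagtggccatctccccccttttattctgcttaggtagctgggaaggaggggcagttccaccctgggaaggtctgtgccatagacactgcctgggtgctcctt

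Nlrp3: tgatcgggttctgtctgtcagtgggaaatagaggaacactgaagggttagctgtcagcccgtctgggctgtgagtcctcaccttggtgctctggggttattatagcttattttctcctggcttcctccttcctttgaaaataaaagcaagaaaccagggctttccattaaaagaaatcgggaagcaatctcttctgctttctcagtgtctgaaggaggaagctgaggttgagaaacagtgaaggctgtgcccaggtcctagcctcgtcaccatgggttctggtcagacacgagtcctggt

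Among the other members, *Il1r1* held a C/EBP match at the upstream of its 2 starts, *Il18* a TATA match on the reverse strand from −175 to −170, and *Myd88* TATA matches, while *Casp1* and *Il1rap* held none. The κB and PU.1 letters were in none of the members' windows, which says nothing about either factor. Base composition set *Il1rap* apart, with 72% G and C and 33 CpG dinucleotides, against medians of 52.7% and 7 over all promoters. *Il1a* had 44.7% and 5, *Il1b* 45.7% and 3, *Il1rn* 54% and 1, and *Nlrp3* 49.3% and 5. *Il18* had 36.7% and 1, *Casp1* 48% and 3, and *Myd88* 54% and 13, and the 2 starts of *Il1r1* had 49.3% and 5, and 63.3% and 14.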

How the data were processed

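The authors trimmed reads with fastp, mapped them to mm39 with STAR, counted exons with featureCounts (multi-mapping reads as fractions), dropped genes of low CPM, scaled by TMM and applied voom. The deposited values are log2 CPM, with an offset of 0.5 reads, and all results start from them. Versions of those tools are not stated. Reads were recovered by taking each library's lowest value as 0 reads, and 41.7% to 59.37% of them were whole within 0.02, so no test for counts was run. The floor of 3 reads covers counting error alone. The intervals come from the residual spread of the limma fit, which holds variation between tumors in the population differences. They do not cover the choice of processing. Libraries were grouped by sort and paired by tumor number. With population means removed, r averaged 0.486 (0.14 to 0.662) over 18 library pairs within a tumor and −0.243 over 36 pairs across tumors. Removing the population means ties the second average to the first, so it is no separate evidence of pairing.

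limma 3.58.1 in R 4.3.3 fitted population and tumor to all 12 libraries and all 18180 genes, with a trend of variance on mean (degrees of freedom: 6 residual, 3.49 prior), two-sided, with Benjamini-Hochberg adjustment over all genes. Tables and figures used Python 3.11.15 and matplotlib 3.10.9. All 9 members are given in full. From each list of related genes, up to 4 are named: the called genes of largest absolute log2 fold change and the most abundant gene. *Il1r2* in PDGFRA+ against PDGFRA-, *Lcn2*, and genes named as most abundant in single populations were picked after their values were seen. Similar genes had a mean log2 CPM above 1, with predicted genes left out, and the 3 with the highest r were taken. Some items are not reported here. Alternatives were no tumor block, only the 2 populations compared in the fit, no trend, a filter of log2 CPM above 1 in 3 libraries, a pseudocount of 1 CPM, quantile normalization, median centring and leaving out each tumor. Members and lists were chosen with earlier results of these data known. The reference used for exon lengths, overlaps and promoters is GRCm38, not mm39, so names joined the sources.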

Additional observations from a re-analysis of the deposited data

How the results depend on the processing

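Of 486 recomputed member log2 fold changes, 412 kept their direction and side of the threshold, 35 no longer passed, 21 newly passed and 18 changed sign. Of 108 recomputed counts, 81 were within 1.5 times the reported count. With no tumor block, PDGFRA+ against GAL1+ went from 6900 to 3154 genes and from 5 to 2 members, PDGFRA- against GAL1+ from 3652 to 725 genes and from 2 to 0 members, and PDGFRA+ against GAL1- from 1504 to 612 genes. With only the compared populations in the fit, the last 2 comparisons gave 1893 and 3386 genes, the latter 2385 higher and 1001 lower in place of 1502 and 2, with *Il1rap* (0.0321) and *Myd88* (0.00326) newly passing. Without the trend, members called were 3 in PDGFRA+ against GAL1+ and 0 in PDGFRA- against GAL1+, which also had 0 under quantile normalization (7 members had an unadjusted p under 0.05 in limma as reported). Of all genes, 6411 and 2693 were called in these comparisons without the trend. Under quantile normalization 3137 were called in PDGFRA- against GAL1+. Median centring moved the share of called genes that were higher from 55.1% to 40.8% in PDGFRA+ against GAL1+ and from 65.6% to 46.9% in PDGFRA- against GAL1+. It shifted the median of all genes by −0.16 and −0.14 there and by −0.11 in PDGFRA+ against GAL1-, where quantile normalization shifted it by −0.13. *Il18* turned to −0.01 in PDGFRA+ against GAL1+ under quantile normalization, and in PDGFRA+ against GAL1- to −0.11 under quantile normalization and −0.08 under centring. Leaving out 1 tumor, or the T4 or T5 PDGFRA- library (chosen after seeing the data), gave 8071 to 8478 genes and 6 to 7 members in GAL1+ against GAL1-, 2110 to 4863 and 0 to 6 in PDGFRA+ against GAL1+, 0 to 5837 and 0 to 6 in PDGFRA- against GAL1+, 0 to 1126 and 0 to 4 in PDGFRA+ against GAL1-, and 0 to 5 genes and 0 members in PDGFRA+ against PDGFRA-. The 0 genes in PDGFRA- against GAL1+ came without T4 (3649 at an unadjusted p under 0.05 in limma), the 5837 without the T5 PDGFRA- library and 1026 without the T4 PDGFRA- library. The 0 genes in PDGFRA+ against GAL1- came without T3 (2549 at an unadjusted p under 0.05). Signs changed under leaving out for members that were not called: in PDGFRA+ against PDGFRA-, *Il1a* ran from −0.70 to 0.85 (−0.69 without the T4 PDGFRA- library), *Il1rap* from −0.27 to 0.82 (−0.19 without that of T5), *Nlrp3* from −0.91 to 0.11 (0.07 without T3, 0.06 without T5), *Casp1* from −0.35 to 0.19 (0.01 without T5, 0.10 without its PDGFRA- library) and *Myd88* from −0.61 to 0.23 (0.22 without T5). *Il1r1* in GAL1+ against GAL1- ran from −0.05 to 0.22, and *Il18* from −0.03 to 0.39 in PDGFRA+ against GAL1+ and from −0.24 to 0.27 in PDGFRA+ against GAL1-. The cause was not tested.

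The precision of each comparison rests on 3 tumors and 6 residual degrees of freedom, and a comparison that did not pass does not show equal levels. Among the PDGFRA- libraries, the pan-leukocyte mean was lowest in T4 (5.60) and highest in T5 (7.83), with T3 at 6.43. The T4 value was near that of the T3 PDGFRA+ library (5.56). The values are RNA of sorted mixtures: they do not show cleavage or release of a cytokine, or which cell made it. Human transgene reads were not measured apart from those of mouse *Egfr*.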
